A study of Gallus gallus with 6 samples.

Results

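Hedgehog signalling was examined through 9 genes of the chick count table: the ligand SHH, the receptor PTCH1, the ligand-binding inhibitor HHIP, the signal transducer SMO, the co-receptors BOC and CDON, and the transcription factors GLI1, GLI2 and GLI3. The genes were chosen by name, each name occurred in 1 row, and all 9 were found among the 24356 genes measured. All 9 also had enough counts to receive an adjusted p-value, as did 16032 genes in all. RNA was sequenced from sorted cells of the chick head ectoderm in 6 samples, 3 of Sox8OE and 3 of Control. In both groups plasmids were electroporated at head fold stages, embryos were cultured ex ovo for 16 to 24 hours at 38 °C, the endogenous otic placode was cut away, and cells positive for both mCherry and EGFP were collected. Sox8OE cells carried pCES-Sox8-mCherry together with pTK-Lmx1aE1-EGFP, a reporter whose green protein is driven by an enhancer close to LMX1A, an otic gene, while Control cells carried the plasmids pCES-mCherry and pCES-EGFP, which label cells regardless of identity. Only Sox8OE cells were therefore sorted for activity of an otic enhancer, and an effect of Sox8 cannot be told apart from an effect of that sort. The study's methods call the replicates biological, but the labels do not say how many embryos were pooled for a sample. The p-values therefore measure the spread between these samples, which may be partly technical.

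The Hedgehog pathway patterns the ventral neural tube, the ventral forebrain and the face, and in the ear it acts on ventral identity. The secreted ligand SHH binds PTCH1, helped by the co-receptors BOC and CDON, and this releases SMO from inhibition at the primary cilium. Active SMO shifts the GLI proteins from repressor to activator forms. GLI1, PTCH1 and HHIP are themselves raised by the signal in many tissues and are commonly used as its readouts, and PTCH1 and HHIP in turn hold the ligand back.

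Total counts ranged from 26326573 to 46586658 per sample. SOX8, carried by the construct, had 854 to 1685 normalised counts in Control and 8554 to 9889 in Sox8OE, so the check of the labels held in all 6 samples. Sox8OE replicate 1 stood closer to Control than to the other Sox8OE samples. Its variance-stabilised counts correlated at 0.981 to 0.984 with the Control samples, and at 0.944 and 0.959 with Sox8OE replicates 2 and 3. Ribosomal protein genes took 10.7% and 8.23% of the counts in Sox8OE replicates 2 and 3, against 5.01% to 6.84% in the other samples. Of 14 surface ectoderm markers, 13 were matched and all were detected, with a summed level of 31601 to 37598 normalised counts in Control and 47069 to 56663 in Sox8OE. In the comparison described below, 3 of the 13 passed both thresholds, KRT18, DLX3 and DLX6, all higher, beside 3.32% of all genes tested. At DLX3 the groups overlapped, with 93.9 to 411 normalised counts in Control and 364, 4303.5 and 1850 in Sox8OE replicates 1, 2 and 3. KRT19 passed the adjusted p alone, also higher, and the median log2 fold change of the 13 was 1.02. The groups did not overlap at 6 markers higher in Sox8OE and 1 lower, beside 10.1% and 9.09% of all genes tested. Not every marker followed the sum. EPCAM had 15872 to 16766 in Control and 27325, 10127 and 12539 in Sox8OE replicates 1, 2 and 3. TP63, the 1 marker of the 13 with a log2 fold change below 0, had 322 to 597 in Control and 205 to 315 in Sox8OE.

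To ask whether Hedgehog genes changed after Sox8 misexpression, the groups were compared with DESeq2 over all genes. SHH was lower in all 3 Sox8OE samples, by 12.5-fold, and was the only one of the 9 genes to pass both thresholds, an adjusted p-value under 0.05 and a log2 fold change larger in size than 1.5. The remaining 8 genes did not pass, GLI2 and CDON having the smallest p-values among them. One member called lower of 9 compares with 0.961% of all genes tested, and 2 members with groups that did not overlap compare with 19.2% of all genes tested, 10.1% higher and 9.09% lower. By the adjusted p alone, SHH was again the only member to pass, beside 5.24% of all genes tested, 3.94% higher and 1.3% lower. The median log2 fold change of the 9 genes was -0.10, against 0.08 over all genes tested, and 5 of the 9 were below 0, beside 47.0% of all genes tested.

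**Figure D1:**
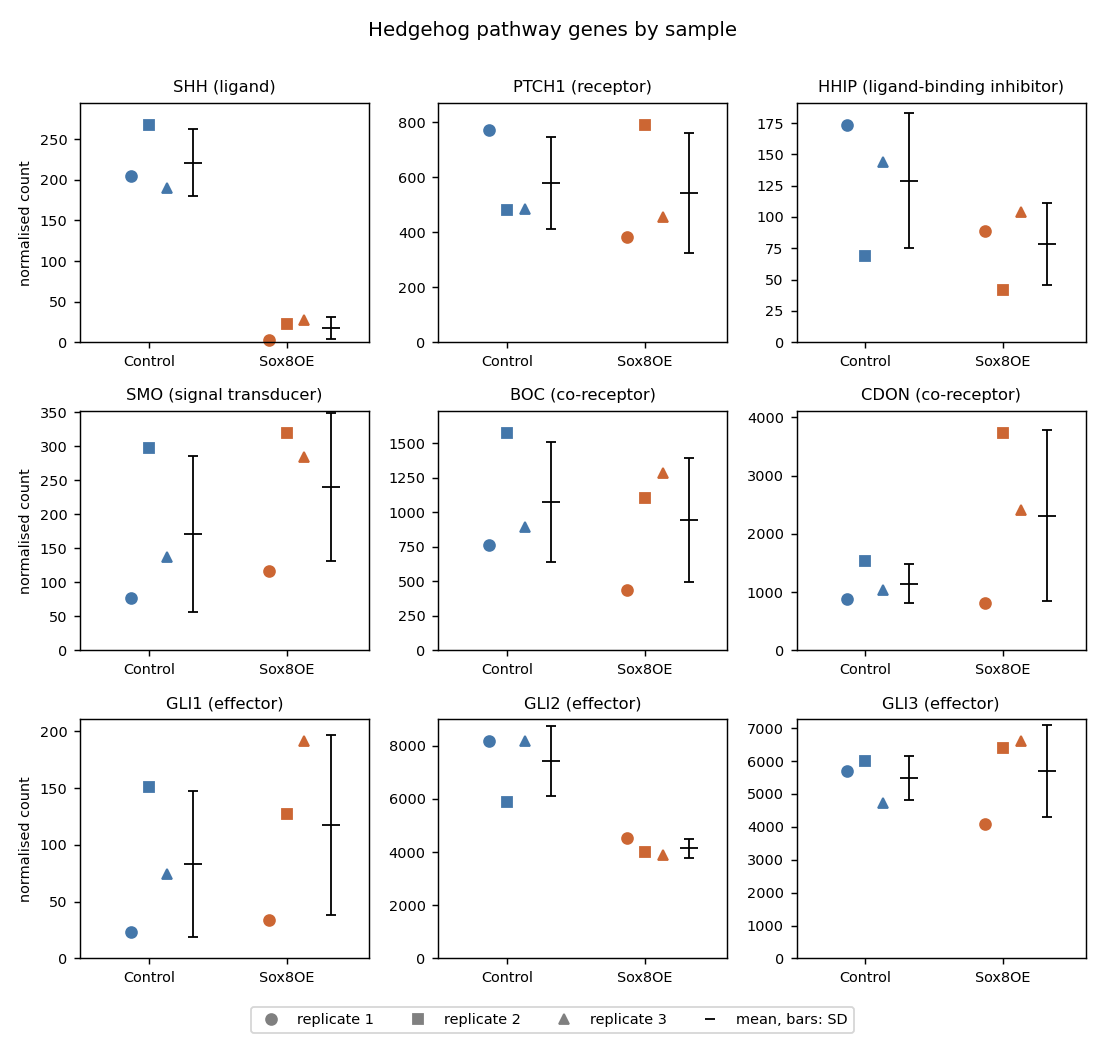
Normalised counts (y axes, linear, from 0) of the 9 Hedgehog genes in 3 Control and 3 Sox8OE samples, with a symbol for each replicate and the group mean ± SD in black. The groups are separate at SHH and GLI2, and at the other 7 genes they overlap.

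The ligand was considered first. SHH (ENSGALG00000006379) had 204 normalised counts in Control replicate 1, 268 in replicate 2 and 190.1 in replicate 3. In Sox8OE it had 2.58, 23.1 and 28.0 in replicates 1, 2 and 3. The groups lay far apart, the highest Sox8OE sample being well below the lowest Control sample, and Sox8OE replicate 1 was the lowest of all. The mean fell from 221 ± 41.2 (SD, n = 3) to 17.9 ± 13.5 (SD, n = 3), which is -3.64 ± 0.71 (SE) on the log2 scale (DESeq2 adjusted p = 4.9e-05). In Sox8OE these levels rested on few reads, 3, 21 and 26, against 185, 341 and 206 in Control. The exact Poisson 95% interval of the 3 reads in Sox8OE replicate 1 was 0.619 to 8.77 reads, and that of the 26 reads in replicate 3 was 17.0 to 38.1, which covers counting error only, since the reads carry no molecular identifiers. In bulk samples, fewer cells that express SHH and less SHH RNA per cell cannot be told apart.

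The call of SHH depended on the test, not on a single library. It held in each of the 6 DESeq2 fits that left out 1 sample, with log2 fold changes from -4.14 to -3.12 and adjusted p-values from 6.9e-09 to 0.0061. The edgeR quasi-likelihood test gave almost the same log2 fold change, -3.60, with an unadjusted p of 0.0013 and an adjusted p of 0.11, so the call was lost there. That test called 0 of the 9 genes, with 2 at an unadjusted p under 0.05, and it called 0.276% of all genes it tested. The share of all genes at that unadjusted p was not taken. Limma voom also called 0 of the 9, with 0.222% of all genes called.

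**Figure D2:**
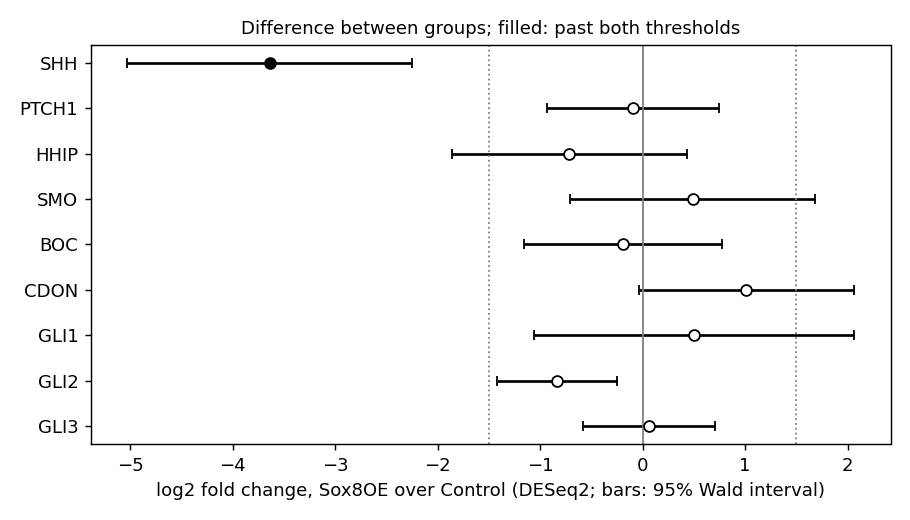
Log2 fold change of Sox8OE over Control for each of the 9 genes (x axis; DESeq2 estimate with its 95% Wald interval), with dotted lines at the fold change threshold of 1.5 in either direction. SHH, the filled point at -3.64, is the only gene past both thresholds.

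The other Hedgehog ligands were almost silent. DHH, which acts in the gonad and peripheral nerve, and IHH, which acts in bone and gut, had at most 1 read in any sample and received no adjusted p. Of the genes that prepare and release the ligand, SCUBE1 (ENSGALG00000014178), a secreted member of the SCUBE family, whose member SCUBE2 helps to release lipid-bearing SHH, changed. SCUBE1 had 1781, 1434 and 1279 normalised counts in Control and 440.1, 493 and 634 in Sox8OE, so the groups did not overlap. The estimate was -1.52 ± 0.33 (SE) on the log2 scale (DESeq2 adjusted p = 4.6e-04), close to the fold change threshold. The call was lost in 9 of 20 alternatives, among them the edgeR test (adjusted p = 0.095), whereas the direction was kept in all 20. Without Control replicate 1 its adjusted p was 0.091, and without Sox8OE replicates 1 and 2 in turn its log2 fold changes were -1.42 and -1.49. DISP1, the transporter that exports the ligand, had 2315 to 2607 normalised counts in Control and 2898 to 3494 in Sox8OE, a difference of 0.34 ± 0.28 (SE) in log2 that did not pass (DESeq2 adjusted p = 0.45).

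PTCH1 (ENSGALG00000012620), the receptor and a direct target of the signal, had 774, 482 and 484 normalised counts in Control replicates 1, 2 and 3. In Sox8OE it had 382, 791 and 455. The Sox8OE samples held both the highest and the lowest of the 6 values. PTCH1 was thus estimated at -0.10 ± 0.43 (SE) on the log2 scale (DESeq2 adjusted p = 0.91), with a 95% interval of -0.93 to 0.74, so a fall of the size seen at SHH lay outside the interval.

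HHIP (ENSGALG00000009948), a membrane protein that binds the ligand and is also raised by the signal, had 174, 69.1 and 144 normalised counts in Control and 88.7, 41.8 and 104 in Sox8OE. The groups overlapped because Control replicate 2 was below Sox8OE replicates 1 and 3. HHIP was estimated at -0.72 ± 0.59 (SE) on the log2 scale (DESeq2 adjusted p = 0.45). Its 95% interval, -1.87 to 0.43, reached beyond the fold change threshold.

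SMO (ENSGALG00000036114), the 7-pass membrane protein that passes the signal into the cell, varied widely within Control. Its normalised counts were 77.4, 298 and 138 in Control and 116, 319.8 and 285 in Sox8OE. Control replicate 2 was as high as Sox8OE replicates 2 and 3, and the other 3 samples were low. SMO was estimated at 0.49 ± 0.61 (SE) on the log2 scale (DESeq2 adjusted p = 0.64), with a 95% interval of -0.71 to 1.69.

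The co-receptors BOC and CDON are related members of the immunoglobulin superfamily that present the ligand to PTCH1. BOC (ENSGALG00000015152) had 760.4, 1573 and 892 normalised counts in Control and 433, 1106 and 1286 in Sox8OE. Sox8OE replicate 1 was the lowest sample and Control replicate 2 the highest. BOC was estimated at -0.19 ± 0.49 (SE) on the log2 scale (DESeq2 adjusted p = 0.84), with a 95% interval of -1.16 to 0.78. With 1 surrogate variable in the fit BOC was at -1.14 (adjusted p = 0.044), where 3.03% of all genes had an adjusted p under 0.05 and 1.8% were called. That variable set Sox8OE replicates 2 and 3 (0.67 and 0.46) apart from the other samples (-0.39 to -0.18), so the fit leaned on Sox8OE replicate 1.

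CDON (ENSGALG00000035419) had 874, 1529 and 1036 normalised counts in Control and 805, 3731 and 2403 in Sox8OE. Sox8OE replicates 2 and 3 were above all Control samples, while Sox8OE replicate 1 was the lowest of the 6. CDON was estimated at 1.01 ± 0.53 (SE) on the log2 scale and did not pass (unadjusted p = 0.058, DESeq2 adjusted p = 0.24). Without Sox8OE replicate 1 the log2 fold change was 1.41 with a DESeq2 adjusted p of 3.2e-05, in a fit that gave an adjusted p under 0.05 to 39.4% of all genes tested. Without Sox8OE replicates 2 and 3 it was -0.50 (DESeq2 adjusted p = 0.88), the lone Sox8OE sample being assumed to vary like Control.

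Within each library the level of CDON was also set against that of BOC, since a change in such a ratio does not depend on the scaling between samples or on gene length. The ratio of CDON to BOC was 1.15, 0.97 and 1.16 in Control and 1.86, 3.37 and 1.87 in Sox8OE. All Sox8OE samples, replicate 1 included, were above all Control samples. This ratio was picked from 5 after the values were seen, and it was not tested. The other 4, GLI3 to GLI2, GLI1 to GLI2, HHIP to PTCH1 and PTCH1 to SMO, overlapped between the groups.

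Of the effectors, GLI2 is the main activator of targets, GLI3 mainly acts as a repressor, and GLI1 is an activator whose transcription depends on the signal. GLI2 (ENSGALG00000011630) had 8170.0, 5896 and 8169.6 normalised counts in Control and 4544, 3992 and 3887 in Sox8OE. The groups did not overlap, and the Sox8OE samples lay close together. Means were 7412 ± 1313 (SD, n = 3) for Control and 4141 ± 352 (SD, n = 3) for Sox8OE. GLI2 was estimated at -0.84 ± 0.30 (SE) on the log2 scale and did not pass (unadjusted p = 0.0049, DESeq2 adjusted p = 0.072). GLI2 was below Control in all 20 alternatives, with log2 fold changes from -0.99 to -0.64. An adjusted p under 0.05 was reached in 3 of them, the lowest being 3.2e-04 without Sox8OE replicate 1. Another was limma voom with sample quality weights (log2 fold change -0.95, adjusted p = 3.5e-04), where 50.2% of all genes had an adjusted p under 0.05.

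GLI3 (ENSGALG00000040266) had 5689.8, 6015 and 4726 normalised counts in Control and 4100.0, 6408 and 6608 in Sox8OE. Sox8OE replicate 1 was the lowest sample and Sox8OE replicates 2 and 3 the highest. GLI3 was estimated at 0.06 ± 0.33 (SE) on the log2 scale (DESeq2 adjusted p = 0.93), and its 95% interval of -0.59 to 0.70 was the narrowest of the 9 genes after that of GLI2.

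GLI1 (ENSGALG00000042422) was measured with few reads, 21, 192 and 81 in Control and 39, 116 and 178 in Sox8OE. Its normalised counts were 23.2, 151 and 74.8 in Control and 33.6, 127 and 191 in Sox8OE. Both groups spanned low and high values, the lowest in Control replicate 1 and the highest in Sox8OE replicate 3. GLI1 was estimated at 0.50 ± 0.80 (SE) on the log2 scale (DESeq2 adjusted p = 0.72), with a 95% interval of -1.06 to 2.06, the widest of the 9 genes. A rise past the fold change threshold lay within that interval. Limma voom with sample quality weights placed GLI1 past both thresholds (log2 fold change 1.54, adjusted p = 0.031) in a fit that called 20.0% of all genes, and GLI1 was below 0 in 3 other alternatives.

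**Figure D3:**
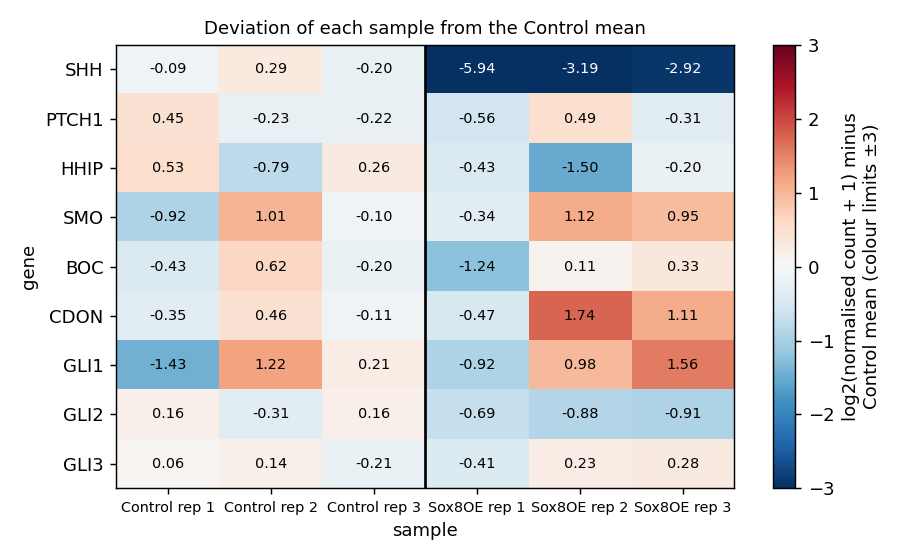
Deviation of each of 6 samples (columns) from the Control mean for the 9 genes (rows), in log2(normalised count + 1), with colours limited to 3 in either direction and the value printed in each cell. SHH is at -5.94, -3.19 and -2.92 in the Sox8OE samples, and the co-receptor CDON is at -0.47, 1.74 and 1.11.

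The 9 genes differed between replicates as well as between groups. Sox8OE replicate 1 was the lowest of the 6 samples at 5 genes, SHH, PTCH1, GLI3, BOC and CDON, whereas it was the lowest at 15.9% of all genes tested. Control replicate 1 was the lowest at SMO and GLI1. At 6 genes, SHH, SMO, BOC, CDON, GLI1 and GLI3, the highest Control value was that of Control replicate 2. The share of all genes at which this held was not taken. That library was the most deeply sequenced, but the values are already scaled by size factor, and a part of depth was not tested. GLI1 had the largest coefficient of variation in Control, 77.4%, and SHH the largest in Sox8OE, 75.3%. GLI2 in Sox8OE varied least, at 8.51%.

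The rest of the pathway was described from 6 lists with 91 genes, of which 82 were matched and 76 had an adjusted p. Of these, 0 were called higher and 3 lower, namely SCUBE1, NKX2-1 and DBX1, beside 4.28% of all genes tested that were called in either direction, 3.32% higher and 0.961% lower. The median log2 fold change was 0.08, the same as over all genes. Of the 76, the groups did not overlap at 7 higher and 10 lower, beside 10.1% and 9.09% of all genes tested. Among the GLI regulators they did not overlap at 3, all higher. At an unadjusted p under 0.05 there were 17 DESeq2 genes and 12 edgeR genes, and the edgeR test called 2 of the 3, NKX2-1 and DBX1. The share of all genes at an unadjusted p under 0.05 was not taken. Neither these counts nor those given below for single lists can therefore be read as more or fewer than over all genes. Without Sox8OE replicate 1, DESeq2 called 12 of the 77 genes with an adjusted p, 5 higher and 7 lower, beside 18.2% of all genes tested.

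**Figure D4:**
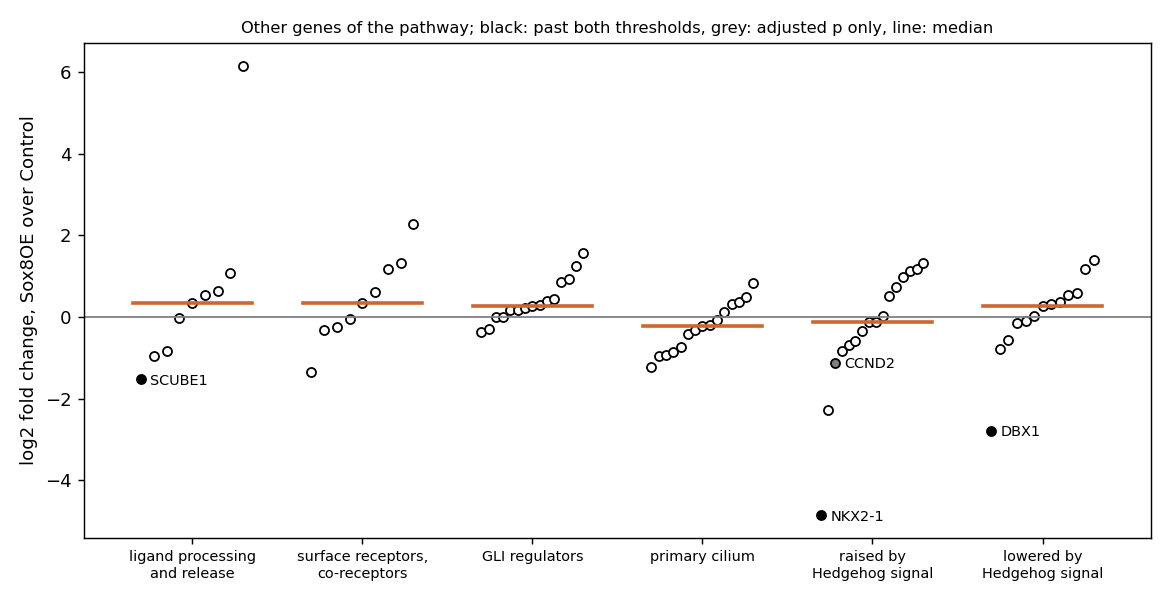
Log2 fold change of Sox8OE over Control (y axis) for the pathway genes with an adjusted p in 6 lists (x axis), sorted within each list, with the list median as a line. SCUBE1, NKX2-1 and DBX1 are past both thresholds, CCND2 passes the adjusted p alone, and the point above 6 is HHATL, whose fitted value against Control libraries at 0 reads is no bound.

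Among 9 tested genes of ligand processing, SCUBE1 was the only call. DHCR7, the last enzyme of cholesterol synthesis, which supplies the lipid that the ligand carries, had 4714 to 5981 normalised counts in Control and 2322 to 4409 in Sox8OE, a difference of -0.82 ± 0.36 (SE) in log2 that did not pass (DESeq2 adjusted p = 0.17). HHATL, related to the enzyme that attaches palmitate to the ligand, had 0 reads in all Control samples and 1, 12 and 21 in Sox8OE, and did not pass (DESeq2 adjusted p = 0.088).

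None of 9 tested surface receptors and co-receptors was called by DESeq2 or edgeR, with 2 and 1 at an unadjusted p under 0.05. GPC1, a cell surface proteoglycan, had 2805 to 4405 normalised counts in Control and 3528, 9843 and 9708 in Sox8OE replicates 1, 2 and 3, with a DESeq2 adjusted p of 0.11. GPR161, a ciliary receptor that restrains the pathway, had 782 to 1067 normalised counts in Control and 765, 101 and 246 in Sox8OE, with a DESeq2 adjusted p of 0.19. At GPC1 and GPR161, as at CDON, Sox8OE replicates 2 and 3 were far from Control and replicate 1 was near it. The co-receptor GAS1 had at most 3 reads in any sample.

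None of 15 intracellular regulators of GLI proteins was called by DESeq2 or edgeR, with 3 and 2 at an unadjusted p under 0.05. SUFU, which holds GLI proteins in the cytoplasm, was estimated at -0.28 ± 0.32 (SE) in log2, with a 95% interval of -0.91 to 0.34. KIF7, a ciliary kinesin that regulates GLI processing, had 0.86 ± 0.57 (SE) with a DESeq2 adjusted p of 0.35. GSK3B, a kinase that phosphorylates GLI3 ahead of its cleavage, had 1107 to 1206 normalised counts in Control and 1225, 2899 and 2633 in Sox8OE, with a DESeq2 adjusted p of 0.14.

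The primary cilium, where SMO and the GLI proteins meet, was represented by 15 tested genes, of which 10 were below 0 and none was called by DESeq2 or edgeR, with 3 and 2 at an unadjusted p under 0.05. Over all genes tested, 47.0% were below 0. The median log2 fold change of the cilium genes was -0.23, against 0.08 over all genes tested. At TCTN1, TMEM67, IFT52 and RAB23, Sox8OE replicates 2 and 3 were below all Control samples, while replicate 1 was within the Control range. IFT88, a part of the transport complex, had a log2 fold change of -0.07 ± 0.29 (SE). TULP3, which carries receptors into the cilium, had 1952 to 3025 normalised counts in Control and 1279 to 1931 in Sox8OE, and did not pass (DESeq2 adjusted p = 0.20).

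Of 16 tested genes known to be raised by Hedgehog signal in the neural tube and elsewhere, 9 were below 0, beside 47.0% of all genes tested. Their median was -0.11, against 0.08 over all genes tested. An adjusted p under 0.05 was reached by 2, both lower, beside 1.3% lower and 3.94% higher of all genes tested. At 4 of the 16 the groups did not overlap, all lower, beside 9.09% lower and 10.1% higher of all genes tested. These 4 were NKX2-1, CCND2, FOXA2 and CCND1. CCND1 had 16575 to 20323 normalised counts in Control and 10809 to 13613 in Sox8OE, and did not pass (log2 fold change -0.58, DESeq2 adjusted p = 0.21). NKX2-1 (ENSGALG00000037632), a marker of the ventral forebrain, had 1378, 1281 and 1271 normalised counts in Control and 35.3, 85.7 and 15.1 in Sox8OE. It kept its call in all 20 alternatives, with log2 fold changes from -5.84 to -4.45. CCND2 (ENSGALG00000017283), a cyclin that drives entry into the cell cycle, had 8393, 6628 and 8135 normalised counts in Control and 4670.2, 2824 and 3150.0 in Sox8OE. Its estimate of -1.12 ± 0.33 (SE) in log2 was within the fold change threshold (DESeq2 adjusted p = 0.022). The adjusted p was under 0.05 in 11 of 20 alternatives, and it was 0.28, 0.060 and 0.26 without Control replicates 1, 2 and 3, and 0.19 and 0.23 without Sox8OE replicates 2 and 3. FOXA2, made in the floor plate in response to SHH and an activator of SHH there, had 42, 95 and 17 reads in Control and 9, 10 and 9 in Sox8OE. The normalised groups did not overlap, and the DESeq2 adjusted p was 0.10. NKX2-2, a ventral neural tube factor, had 27.6, 79.3 and 44.3 in Control and 64.6, 153 and 127 in Sox8OE, with a DESeq2 adjusted p of 0.24.

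Of 13 tested dorsal genes known to be lowered by the signal, none was higher past the threshold of adjusted p and 1 was lower. These counts stand beside 3.94% higher and 1.3% lower of all genes tested. The groups did not overlap at 1 higher and 2 lower, beside 10.1% and 9.09% of all genes tested. DBX1 (ENSGALG00000003965), a factor of intermediate neural tube and forebrain progenitors, had 962, 1136 and 933 normalised counts in Control and 89.6, 235 and 115 in Sox8OE, estimated at -2.79 ± 0.44 (SE) in log2 (DESeq2 adjusted p = 1.1e-07). MSX1, the other of 2 genes with an unadjusted p under 0.05, was higher but did not pass (log2 fold change 1.41, DESeq2 adjusted p = 0.089). It had 1564, 2843 and 1757 normalised counts in Control and 2293, 9611 and 4495 in Sox8OE, so its groups overlapped. PAX3, a dorsal neural tube factor, was at 1110.0 to 1257 in Control and 1267 to 1747 in Sox8OE, a difference of 0.31 ± 0.30 (SE) in log2 that did not pass (DESeq2 adjusted p = 0.54).

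Markers of other tissues of the head, whether or not they make SHH, were read beside it. Of 10 floor plate and notochord markers, all matched, 8 had an adjusted p. Of these, 1 was called lower and none higher, beside 0.961% and 3.32% of all genes tested. The groups did not overlap at 3 lower and 1 higher, beside 9.09% and 10.1% of all genes tested. The gene called lower, FOXA1, which is also expressed in endoderm, went from 53.1, 81.6 and 82.1 to 6.03, 2.20 and 7.53 normalised counts (DESeq2 adjusted p = 1.2e-04). The summed level of the list was 3990 to 6395 in Control and 9828 to 11759 in Sox8OE, most of it from SPON1, which had 3453 to 5305 in Control and 9340 to 11512 in Sox8OE and passed the adjusted p but not the fold change threshold (DESeq2 adjusted p = 0.0038). CHRD, a BMP antagonist made by the notochord, had 258, 632 and 244 normalised counts in Control and 67.2, 204 and 68.8 in Sox8OE, so its groups did not overlap, and it did not pass (log2 fold change -1.74, DESeq2 adjusted p = 0.066). TBXT, NOTO, NTN1 and FOXJ1 overlapped between the groups and did not pass, with log2 fold changes of 0.84, 0.32, -0.47 and -0.13, and FERD3L had at most 8 reads in any sample. Of 12 neural plate and forebrain markers, 2 were called lower, LHX2 and LHX9, and none higher, beside 0.961% and 3.32% of all genes tested. Their summed level was 6336 to 8990 in Control and 3935 to 9778 in Sox8OE. HESX1 passed the adjusted p but not the fold change threshold (log2 fold change -1.45, DESeq2 adjusted p = 0.0025). At 4 of the 12 the groups did not overlap, all lower, beside 9.09% of all genes tested, and 6 of the 12 were below 0. Of 7 endoderm markers with an adjusted p, FOXA1 was called lower and GATA6 higher, beside 0.961% and 3.32% of all genes tested. The groups did not overlap at 3 lower and 2 higher, beside 9.09% and 10.1% of all genes tested. Endoderm markers summed to 212 to 418 in Control and 350.5 to 593 in Sox8OE, and SOX17 had at most 1 read in Control and 3, 9 and 0 reads in Sox8OE. Head mesoderm and vessel markers summed to 2612 to 4242 in Control and 2631 to 6108 in Sox8OE. Of 13 with an adjusted p, 1 was called lower and none higher, beside 0.961% and 3.32% of all genes tested. The gene called lower was TWIST1 (log2 fold change -3.44, DESeq2 adjusted p = 4.7e-08). It did not stand for the list, in which only 4 of the 13 were below 0, beside 47.0% of all genes tested. The median log2 fold change of the 13 was 0.11. The part of these tissues in the fall of SHH was not tested.

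**Figure D5:**
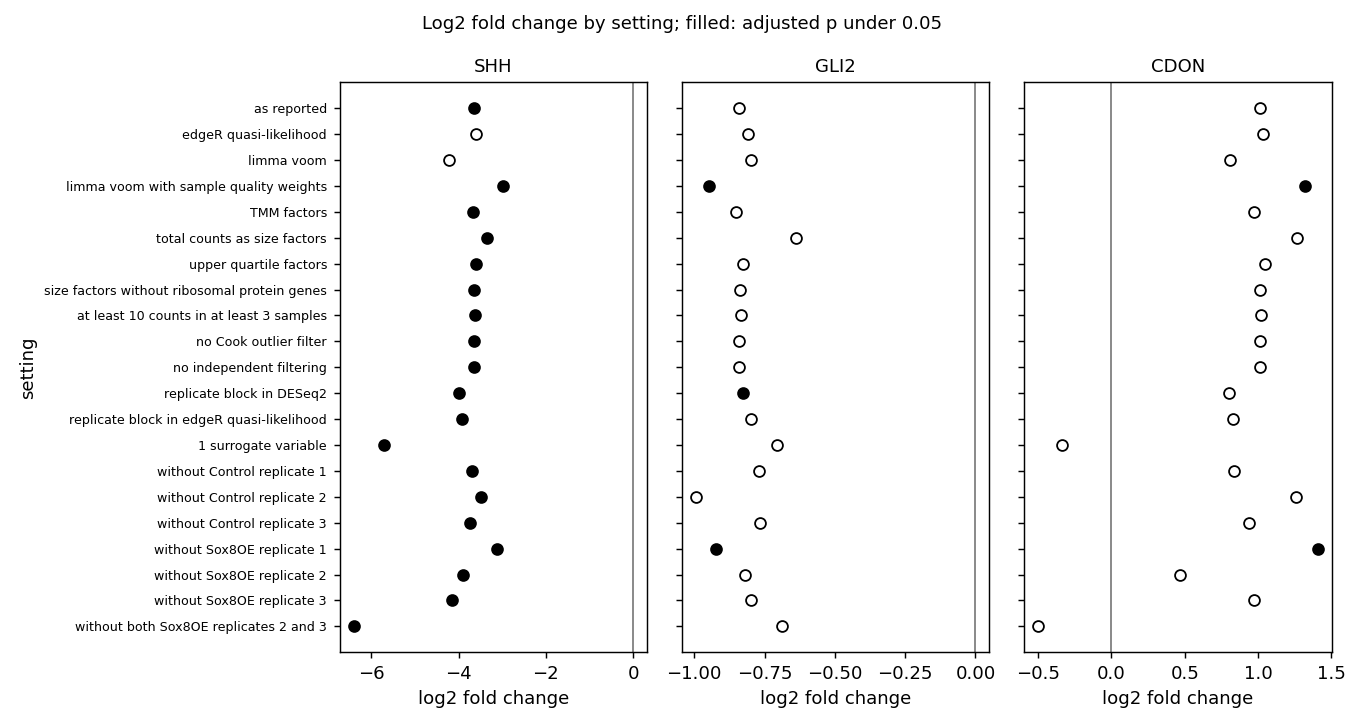
Log2 fold change of SHH, GLI2 and CDON (x axes) under the reported DESeq2 fit and 20 alternatives (y axis), filled where the adjusted p is under 0.05. SHH stays between -6.40 and -2.98 and GLI2 below 0 throughout, while CDON crosses 0 with 1 surrogate variable and without both Sox8OE replicates 2 and 3.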

How the data were processed

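RNA was sequenced as paired reads of 75 bases. The series text gives 4000 sorted cells per sample, and the study's methods give another number. The authors aligned reads to GalGal6 with STAR in the nf-core RNA-seq pipeline at its defaults, and the submitters' processing notes name Trim Galore and featureCounts. The deposited values are raw counts of reads for each Ensembl gene, without normalisation. The annotation release and the strand setting are not given in the sources used here, so counts of overlapping genes are uncertain.

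Sox8OE was compared with Control by DESeq2 1.42.0 in R 4.3.3 over all genes, with group as the only term. As in the study's methods, which name DESeq2 but no model terms, calls needed an adjusted p (Benjamini-Hochberg) under 0.05 and a log2 fold change, not shrunken, over 1.5 in size. Each normalised count is the read count over the size factor of its sample, and intervals of fold changes are Wald intervals. Alternatives used edgeR 4.0.16, limma 3.58.1, sva 3.50.0, other scalings and filters, a replicate block and fits without each sample. The fit without both Sox8OE replicates 2 and 3 was added after seeing the data.

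Members and lists were chosen with earlier results of these data known. The genes named are the 9 members, up to 3 genes with the smallest p among those with an adjusted p under 0.05 in each other list, SOX8, and 3 genes with the profile nearest to SHH, PTCH1 and GLI1 each, with a mean of at least 50 normalised counts. Further genes were named after their values were seen, as examples. List genes were matched by name, then by synonyms or Ensembl identifiers in RefSeq (GRCg7b). One, CSNK1A1, matched a row named CSNK1A1L and LHX2 a row named LH-2A. No positions or sequences are given. A few genes that these rules or lists hold are not reported here.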

Additional observations from a re-analysis of the deposited data

How the results depend on the processing

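The number of members past both thresholds was 1 as reported, 0 with the edgeR test, 0 with limma voom and 2 with sample quality weights, and it was 1 in each fit without 1 sample. SHH had an adjusted p of 0.11 with edgeR (log2 fold change -3.60) and 0.13 with limma voom (-4.22). The number of members with an adjusted p under 0.05 was 1 as reported, 0 with edgeR, 0 with limma voom, 5 with sample quality weights, 2 with a replicate block in DESeq2 and 2 with 1 surrogate variable, and 1 to 3 in fits without 1 sample, the 3 (SHH, GLI2 and CDON) without Sox8OE replicate 1. An adjusted p under 0.05 was held by 5.24% of all genes tested as reported, 0.276% with edgeR and 0.222% with limma voom. It was held by 50.2% with sample quality weights, 18.6% with the block in DESeq2, 3.03% with 1 surrogate variable and 39.4% without Sox8OE replicate 1. Of the other pathway genes, 3 were called as reported, 14 with sample quality weights, 5 with a replicate block in DESeq2 and 2 to 12 in fits without 1 sample, the 12 without Sox8OE replicate 1. Total counts as size factors called 1 of them higher and 2 lower, in place of 0 and 3, and shifted the median of all genes by 0.21 on the log2 scale. Of all genes tested, 4.28% were called as reported, 20.0% with sample quality weights, 8.15% with the block in DESeq2 and 18.2% without Sox8OE replicate 1. Members whose groups did not overlap numbered 2 as reported and 2 to 4 without 1 sample, the 4 without Sox8OE replicate 1. Groups with fewer samples separate more easily, and the share over all genes was taken with all 6 samples only (19.2%). The rise to 4 is therefore no result about the members.

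Direction turned at 6 genes that were never called in the reported fit. PTCH1 was at 0.14 with total counts and -0.48 to 0.16 in fits without 1 sample. SMO was at -0.47 with 1 surrogate variable and -0.55 without both Sox8OE replicates 2 and 3, an alternative chosen after seeing the data. Under these same 2 settings GLI1 was at -1.02 and -1.30, GLI3 at -0.31 and -0.40, and CDON at -0.34 and -0.50. The surrogate variable was 0.67 and 0.46 in Sox8OE replicates 2 and 3, and -0.39 to -0.18 in the other samples, Sox8OE replicate 1 included. Both settings therefore lean on Sox8OE replicate 1 against Control, and they are not separate evidence. Without 1 sample GLI1 ranged from -0.061 to 1.24 and GLI3 from -0.065 to 0.24. BOC was at 0.43 with sample quality weights, 0.071 with total counts and -0.49 to 0.17 without 1 sample. The causes were not tested. SHH, GLI2, HHIP, SCUBE1, NKX2-1, CCND2 and DBX1 kept their direction in all 20 alternatives each.

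Replicate numbers were not taken to pair the samples. Deviations from the group means correlated at 0.37, 0.38 and 0.043 for replicates 1, 2 and 3 over 11798 genes. Control replicate 1 with Sox8OE replicate 2 gave -0.37, and Control replicate 2 with Sox8OE replicate 1 gave -0.35. Replicate 3 of Control correlated about equally with replicates 1 and 3 of Sox8OE, at 0.049 and 0.043. Whether the numbers pair the samples is not settled by these values. The replicate block in DESeq2 raised the number of all genes called from 686 to 1274, and the edgeR test with the block called 182 in place of 41, SHH among them (adjusted p = 0.049). The block gave GLI2 an adjusted p of 0.032 in DESeq2, in a fit where 18.6% of all genes tested had an adjusted p under 0.05. The 3 to 26 reads at SHH limited the precision of its level in Sox8OE.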

Other observations

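Over the 6 samples, named genes with a mean of at least 50 normalised counts were ranked by how little their centred log2(normalised count + 1) differed from that of SHH, PTCH1 or GLI1, as a root mean square, among 9763 candidates. This is a description of 6 values per gene, in which group and library differences are shared. Near to SHH were C10orf71 and DLGAP1, a scaffold protein of synapses, at distances of 0.82 and 0.86. Both were lower in Sox8OE, with log2 fold changes of -2.50 and -2.67, which follows from picking them for their likeness to SHH. DLGAP1 had 169, 147 and 146 normalised counts in Control and 12.1, 24.2 and 36.6 in Sox8OE. The low value of Sox8OE replicate 1 is part of the same likeness. The nearest to PTCH1 were ATG13, an autophagy gene, NUAK1, a kinase, and DBX2, a neural tube factor listed among the dorsal genes above, at distances of 0.069, 0.090 and 0.11. DBX2 had 487, 239 and 259 normalised counts in Control and 229, 441 and 247 in Sox8OE. The nearest to GLI1 were SIK3, a kinase, GRIN3A, a subunit of the NMDA receptor, and FAM222A, at distances of 0.21, 0.21 and 0.34.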
